A study of Mus musculus
Rattus norvegicus and Rattus norvegicus and Mus musculus with 18 samples.

Results

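The 9 rat genes described here are known from cells that line the lung: Sftpc, Sftpb, Sftpa1, Sftpd, Scgb1a1, Napsa, Lamp3, Ager and Hopx. Napsa and Hopx were not particular to lung in these data, as every tumor library held them too. They were taken by gene symbol, and all 9 were among the 14876 genes of the rat table. The study placed 4T1 cells, a mouse mammary carcinoma line, into the mammary fat pads of immunodeficient SRG rats and collected tissue on day 27. Tumors were divided into a necrotic core and a non-necrotic rim (5 libraries each, from Rat3877, Rat3876, Rat3875, Rat3869 and Rat3867), and lung was taken from the first 4 of these rats and from Rat3789 (5 libraries). Normal mammary gland of rats without a graft (2 libraries) and a pellet of 4T1 cells (1 library) were the single-species controls. The labels give the genotype of the tumor as wildtype and state no treatment; they give neither age nor sex of the hosts, and the gene deletions that the name SRG stands for are shared by all tumor and lung libraries. Each library was polyA RNA-seq, and reads were assigned to mouse or rat before counting.

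The alveoli are lined by type 2 cells, which make and store surfactant, and by flat type 1 cells, across which gas exchange takes place. Surfactant is a film of lipid and protein that lowers surface tension; its small hydrophobic proteins SP-C and SP-B are cut from precursors, and its collectins SP-A and SP-D bind microbes. Club cells of the airways secrete the uteroglobin protein encoded by Scgb1a1. No sequences are shown, as no rat sequence was used here.

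Rat reads per tumor or lung library ranged from 3146720 to 10015352 and mouse reads from 15346400 to 26669410, so mouse reads outnumbered rat reads in the lungs too. Levels are given as deposited, as rat read counts scaled to library size (CPM) with 0.5 read added before scaling, so that a gene with 0 reads stands slightly above 0. Levels of different genes are not compared, because the values are not per length. In bulk tissue, fewer cells of a type and less RNA per cell cannot be told apart.

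One library went against its label. The library labelled lung of Rat3789 held 0.0242% of its rat reads on the 9 genes, against 1.10 to 1.91% in the other 4 lungs and 0.0122 to 0.0441% in the 10 tumor libraries. Its Sftpc level was 1.88 CPM, from 16 reads, where the lowest of the other lungs reached 3126 CPM. Its 13 fibroblast and matrix genes summed to 30620 CPM, against 3452 to 8413 CPM in the other lungs, 42300 to 79400 in the rims and 4217 to 14260 in the cores. Its alveolar type 1 genes beyond Ager and Hopx summed to 444 CPM, against 3907 to 6741 CPM in the other lungs. This list summed to 529.5 to 828 CPM in the rims and 207 to 322 in the cores. Adipocyte genes summed to 1179 CPM in the Rat3789 library and to 274 to 408 CPM in the other lungs. Their sum was 717 to 1816 CPM in the rims and 237 to 645 in the cores. Not every list was low in the Rat3789 library: its 27 type 2 and surfactant genes beyond the members summed to 18250 CPM, above the 11980 to 16310 CPM of the other lungs and the 3739 to 9695 CPM of the tumor. Of this sum 90.7% was Lyz2, a lysozyme gene that macrophages also express, 3.84% was Ctsh and 1.14% was Cebpa. These genes were singled out here after their values were seen. Ctsh, at 701 CPM, lay below the other lungs (1111 to 1561 CPM) and above the tumor (261 to 575.5 CPM). Cebpa, at 208 CPM, lay above the other lungs (137 to 155 CPM) and inside the tumor range (73.2 to 287 CPM). Without Lyz2, Ctsh and Cebpa the list summed to 787 CPM. It summed to 3078 to 5010 CPM in the other lungs and 845 to 1666 CPM in the tumor. The alveolar macrophage list summed to 1602 to 2292 CPM in the other lungs and 1518 to 2184 in the cores. It summed to 2009 to 3571 CPM in the rims and to 3225 CPM in the Rat3789 library. Tests of lung against tumor are therefore given with all 5 lungs and without this library. It was left out after its low values of the tested genes were seen. Larger differences and smaller errors without it follow in part from that choice. The fits without it, and plain comparisons of the other lungs with the tumor, are thus descriptions and not separate support. Below, "the 4 lungs" are those of Rat3877, Rat3876, Rat3875 and Rat3869.

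**Figure D1:**
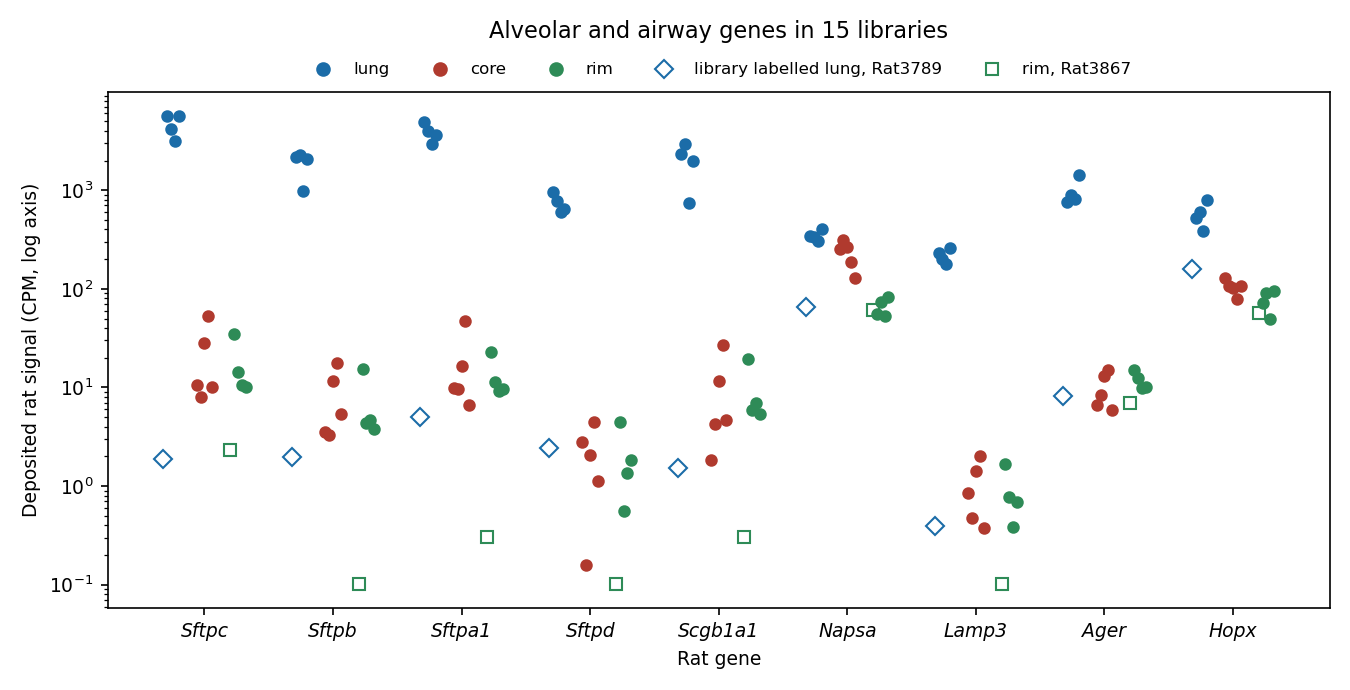
Level of each of the 9 genes in the 15 tumor and lung libraries (deposited rat CPM, log axis; each point is 1 library). In 8 genes the 4 lungs lie above every tumor library and Napsa is the exception; the open diamond, the library labelled lung of Rat3789, lies within the tumor range in 7 genes, below it for Sftpc and above it for Hopx, and the open square marks the rim of Rat3867.

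All 9 genes were higher in lung than in the tumor rim. With all 5 lungs, 9 of 9 passed the test (limma, adjusted p under 0.05), where 11.3% of all rat genes tested were higher in lung, and the median log2 difference was 6.69 over the 9 genes and 0.02 over all genes. Without Rat3789, left out because of its low values of these genes, 9 of 9 passed, with 16.7% of all genes higher. The median was then 8.73 against 0.01. Against the core, 8 of 9 were higher with all 5 lungs, where 19.0% of all genes were, and 9 of 9 without Rat3789, where 22.1% were; Napsa made the difference. As plain values, each of the 4 lungs exceeded each core and each rim in 8 of the 9 genes, which held for 9.3% of the genes in the table. The comparisons with rim and with core share the lung libraries, so they are not independent of each other.

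With all 5 lungs, edgeR and DESeq2 on the recovered reads also called 9 of 9 against the rim and 8 of 9 against the core. The other filters, scalings and added constant gave the same counts. Of all genes, edgeR called 1843 and DESeq2 2110 of 14193 higher in lung than in rim. Against core these were 2871 and 3140 of 14044. The other settings called 1458 to 2605 genes higher against rim and 2428 to 3263 against core. Limma-voom, which weights each value by its expected precision, called Napsa and Hopx against the rim (2 of 9; 7.07% of all genes higher) and Hopx against the core (1 of 9; 12.5% of all genes). Leaving out any one of the 4 lungs left 6 of 9 genes called against the rim and 6 of 9 against the core. The calls of Sftpc and Scgb1a1 were lost each time. Of all genes, 937 to 1173 of 13933 to 13957 were then higher against rim and 1838 to 2059 of 13670 to 13713 against core. Leaving out 1 rim or 1 core left 6 to 8 of the 9. Of all genes, 1158 to 1412 of 14109 to 14128 were then higher against rim and 2292 to 2594 of 13953 to 13986 against core. Without Rat3789, limma-voom called 9 of 9 in both comparisons, where 2352 of 14160 genes were higher against rim and 3178 of 13979 against core.

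Sftpc (ENSRNOG00000011177) encodes the precursor of SP-C and is the usual marker of type 2 cells. Its level was 5593, 3126, 4202 and 5676 CPM in the lungs of Rat3877, Rat3876, Rat3875 and Rat3869. In the cores of Rat3877, Rat3876, Rat3875, Rat3869 and Rat3867 it was 10.2, 53.3, 28.5, 8.04 and 10.6 CPM, and in the rims, in the same order of rats, 10.03, 10.6, 14.4, 34.7 and 2.32 CPM. The 4 lungs and the tumor did not overlap, and the Rat3789 library was below all 10 tumor libraries. Lung exceeded rim by 6.51 ± 2.02 on the log2 scale (SE, limma adjusted p = 0.0399) with all 5 lungs and by 8.76 ± 0.60 (limma adjusted p = 3.04e-06), or 434-fold, without Rat3789. Without the rim of Rat3867 these became 5.97 (limma adjusted p = 0.0912, not called) and 8.22 ± 0.37 (limma adjusted p = 1.29e-06). Lung exceeded core by 5.83 ± 1.95 (limma adjusted p = 0.0387) and by 8.08 ± 0.49 (limma adjusted p = 7.29e-07), respectively.

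Sftpb (ENSRNOG00000010761) encodes SP-B, the surfactant protein without which the film does not form. The 4 lungs held 2058, 971, 2262 and 2177 CPM, with the lung of Rat3876 lowest, and the library labelled lung of Rat3789 held 1.99 CPM. The cores held 5.42, 17.8, 11.6, 3.31 and 3.52 CPM and the rims 3.80, 4.63, 4.34, 15.3 and 0.101 CPM, in the order of rats given above. The 4 lungs did not overlap with the tumor, the Rat3789 library lay inside the tumor range, and the rim of Rat3867, with 0 reads, was the lowest library; 0 reads allow up to 3 reads. The difference to rim was 7.46 ± 2.004 (limma adjusted p = 0.0224) with all 5 lungs and 9.41 ± 1.15 (limma adjusted p = 0.000128) without Rat3789. Without the rim of Rat3867 it was 6.28 (limma adjusted p = 0.0517, not called) with all 5 lungs and 8.24 ± 0.44 (limma adjusted p = 3.03e-06) without Rat3789. Against core the values were 6.10 ± 1.71 (limma adjusted p = 0.0186) and 8.06 ± 0.48 (limma adjusted p = 7.06e-07).

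The collectins were distributed alike. Sftpa1 (ENSRNOG00000011438), the gene of SP-A, stood at 3648, 2912, 4004 and 4887 CPM in the 4 lungs and at 5.06 CPM in the Rat3789 library. It stood at 6.68, 47.1, 16.4, 9.61 and 9.84 CPM in the cores and at 9.64, 9.31, 11.5, 23.1 and 0.302 CPM in the rims. The lowest of the 4 lungs thus stood far above the highest tumor library, the core of Rat3876. Lung minus rim was 7.42 ± 1.90 (limma adjusted p = 0.0184), and 9.33 ± 1.02 (limma adjusted p = 5.75e-05) without Rat3789. Without the rim of Rat3867 these became 6.35 (limma adjusted p = 0.0439) and 8.26 ± 0.28 (limma adjusted p = 2.18e-07).

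Sftpd (ENSRNOG00000056001), the gene of SP-D, held 642, 603, 774 and 954 CPM in the 4 lungs and 2.45 CPM in the Rat3789 library. The cores held 1.14, 4.48, 2.07, 0.158 and 2.79 CPM and the rims 1.85, 1.36, 0.556, 4.45 and 0.101 CPM. In the tumor this was between 0 and 22 reads, and the core of Rat3869 and the rim of Rat3867 had 0 reads, so Sftpd was near the limit of detection there. Lung exceeded rim by 8.004 ± 1.63 (limma adjusted p = 0.00613), and by 9.65 ± 0.87 (limma adjusted p = 1.61e-05) without Rat3789. With so few rim reads its size depends on the constant added: with 1 CPM added it was 6.78 with all 5 lungs and 8.32 without Rat3789. Without the rim of Rat3867 it was 7.21 and 8.85, respectively.

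Lamp3 (ENSRNOG00000022792) encodes a membrane protein of lamellar bodies, the organelles in which type 2 cells store surfactant, and dendritic cells express it as well. The 4 lungs held 258, 178, 201 and 232 CPM, within 1.45-fold of each other, and the Rat3789 library held 0.398 CPM from 3 reads. The 10 tumor libraries held between 0 and 8 reads: 0.378, 2.01, 1.43, 0.473 and 0.850 CPM in the cores and 0.681, 0.381, 0.779, 1.68 and 0.101 CPM in the rims. No tumor library came near the 4 lungs. The log2 difference to rim was 6.91 ± 1.68 (limma adjusted p = 0.0144), and 8.72 ± 0.64 (limma adjusted p = 4.77e-06) without Rat3789; without the rim of Rat3867 these were 6.32 and 8.14, and both were still called.

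Scgb1a1 (ENSRNOG00000020196), the marker of club cells, varied most between the 4 lungs. It held 1957, 740, 2961 and 2319 CPM there, a 4.00-fold range, and 1.54 CPM in the Rat3789 library. The cores held 4.67, 26.7, 11.6, 4.25 and 1.82 CPM and the rims 5.35, 6.91, 5.90, 19.5 and 0.302 CPM. The lung of Rat3876 was the lowest of the 4 for Scgb1a1, and also for Sftpc, Sftpb, Sftpa1, Sftpd, Napsa, Lamp3 and Hopx. Lung minus rim was 6.69 ± 1.98 (limma adjusted p = 0.0332), and 8.73 ± 0.98 (limma adjusted p = 7.03e-05) without Rat3789. Without the rim of Rat3867 these were 5.75 (limma adjusted p = 0.0793, not called) and 7.78 ± 0.49 (limma adjusted p = 6.83e-06). The difference lung minus core was 6.07 ± 1.83 (limma adjusted p = 0.0251), and 8.10 ± 0.67 (limma adjusted p = 5.38e-06).

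Ager (ENSRNOG00000000439) encodes RAGE, a receptor abundant on type 1 cells. It stood at 1417, 807, 897 and 760 CPM in the 4 lungs and at 8.25 CPM in the Rat3789 library. The cores held 5.93, 14.98, 13.2, 8.35 and 6.68 CPM and the rims 10.2, 9.96, 12.4, 15.1 and 6.95 CPM. Tumor values were closer together than those of the surfactant genes, spanning 2.53-fold in the cores and 2.18-fold in the rims, and none approached the lungs. The difference to rim was 5.11 ± 1.198 (limma adjusted p = 0.0122), and 6.47 ± 0.23 (limma adjusted p = 2.09e-07) without Rat3789.

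Hopx (ENSRNOG00000024689) encodes a small homeodomain protein of type 1 cells that other tissues express as well. The 4 lungs held 794, 389, 605 and 523 CPM and the Rat3789 library 159 CPM. The cores held 106, 78.3, 101, 108 and 129 CPM and the rims 94.7, 50.02, 90.3, 71.7 and 57.3 CPM. Hopx was the only one of the 9 genes for which the Rat3789 library lay above all 10 tumor libraries, and all 5 lungs exceeded the tumor. Lung exceeded rim by 2.62 ± 0.38 (limma adjusted p = 0.000979), and by 2.99 ± 0.23 (limma adjusted p = 6.21e-06) without Rat3789.

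Napsa (ENSRNOG00000019854) encodes napsin A, an aspartic protease that cuts the SP-B precursor in type 2 cells and is also known from kidney. It was at 401, 308, 332 and 342 CPM in the 4 lungs and at 65.7 CPM in the Rat3789 library. The rims held 83.2, 53.0, 72.9, 54.9 and 60.7 CPM, but the cores held 128, 185, 262, 313 and 253 CPM, and the core of Rat3869 exceeded the lung of Rat3876. Lung exceeded rim by 1.95 ± 0.43 (limma adjusted p = 0.00942), and by 2.43 ± 0.14 (limma adjusted p = 1.49e-06) without Rat3789. Against core it was not called with all 5 lungs (0.18 ± 0.45, limma adjusted p = 0.786) and was called without Rat3789 (0.66 ± 0.22, limma adjusted p = 0.0362). That call ended again when any further lung or the core of Rat3876 was left out as well.

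Against the core, the remaining genes other than Napsa were called in both fits. With all 5 lungs, lung exceeded core by 6.20 ± 1.67 for Sftpa1, 7.43 ± 1.56 for Sftpd, 6.17 ± 1.59 for Lamp3, 5.31 ± 1.18 for Ager and 2.08 ± 0.36 for Hopx (limma adjusted p of 0.00169 to 0.0155). Without Rat3789 the differences were 8.11 ± 0.46, 9.07 ± 0.77, 7.99 ± 0.44, 6.68 ± 0.29 and 2.44 ± 0.19 (limma adjusted p of at most 6.09e-06).

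**Figure D2:**
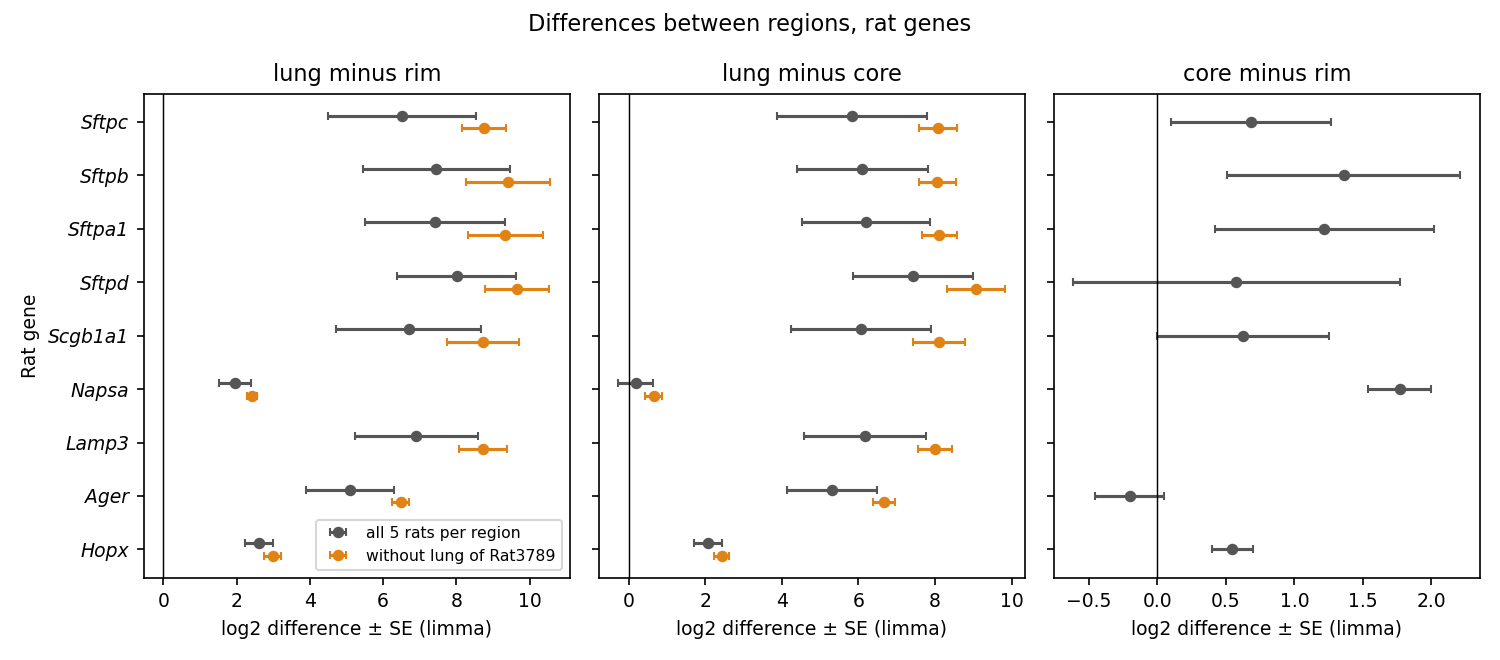
Log2 differences between regions for each gene (points, limma estimates; bars, ± 1 SE), with all 5 rats per region in gray and without the library labelled lung of Rat3789 in orange. Without that library the differences of the surfactant genes to rim are larger and their errors smaller, and Napsa and Hopx differ least between lung and tumor; Lamp3 was not tested between core and rim.

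Within the tumor, Napsa and Hopx were higher in the necrotic core than in the rim. Of the 8 genes tested these 2 were called (limma with the rat as a block), where 17.2% of all genes tested were higher in core; Lamp3 did not pass the filter on low values. The median log2 difference was 0.65 over the 8 genes and -0.00387 over all genes. Napsa was 3.41-fold higher (1.77 ± 0.23, limma adjusted p = 0.000689), at 228 ± 72.5 CPM in core and 64.9 ± 12.8 CPM in rim (SD, n = 5 each). Core exceeded rim in 5 of 5 rats, by 1.53-fold in Rat3877 and by 3.497-fold to 5.71-fold in the others, and the lowest core stood above the highest rim. Hopx was 1.46-fold higher (0.55 ± 0.15, limma adjusted p = 0.0211), at 105 ± 18.2 CPM in core and 72.8 ± 19.7 CPM in rim, and also higher in 5 of 5 rats. The Hopx groups overlapped, and its call was lost without Rat3876, without Rat3869 or without Rat3867 (limma adjusted p of up to 0.0581).

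**Figure D3:**
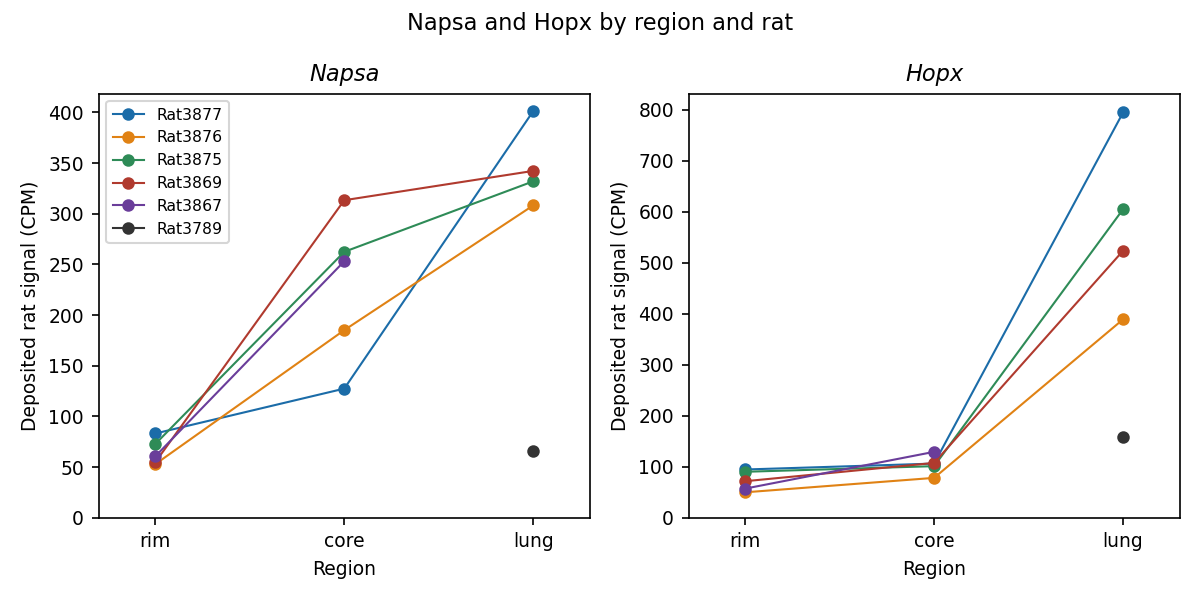
Napsa and Hopx in rim, core and lung (deposited rat CPM, linear axis from 0; 1 color per rat, lines join the libraries of 1 rat). Napsa rises from rim to core in each of the 5 rats, from 53.0 to 83.2 CPM up to 128 to 313 CPM, whereas Hopx differs less between core and rim; the black point is the library labelled lung of Rat3789.

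The surfactant genes, Scgb1a1 and Ager were not called between core and rim with all 5 rats. Sftpc differed by 0.68 ± 0.58 (limma adjusted p = 0.390), Sftpb by 1.36 ± 0.85 (limma adjusted p = 0.247), Sftpa1 by 1.22 ± 0.80 (limma adjusted p = 0.265), Scgb1a1 by 0.63 ± 0.63 (limma adjusted p = 0.466) and Ager by -0.20 ± 0.25 (limma adjusted p = 0.561). The rats did not move alike: Sftpc was 5.02-fold higher in the core of Rat3876 than in its rim and lower in the core of Rat3869, at 0.231 of its rim. Without Rat3869, Sftpc (1.38, limma adjusted p = 0.0313) and Sftpb (2.25, limma adjusted p = 0.0467) were called higher in core. Sftpd stood at 0.58 ± 1.19 (limma adjusted p = 0.734), and at -0.48 (limma adjusted p = 0.783) without Rat3867.

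In the tumor, the same libraries were high or low for several genes. Among the cores, Rat3876 was highest for Sftpc, Sftpb, Sftpa1, Sftpd, Scgb1a1, Lamp3 and Ager. Among the rims, Rat3869 was highest and Rat3867 lowest for the same 7 genes. Neither Napsa nor Hopx had this order: their highest rim was that of Rat3877 and their highest cores those of Rat3869 and Rat3867.

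The proportions of Sftpb, Sftpa1 and Scgb1a1 to Sftpc in 9 of the 10 tumor libraries lay in the range of the 4 lungs or close to it. That of Napsa did not. Per 100 Sftpc reads there were 31.1 to 53.8 Sftpb reads in the 4 lungs and 29.7 to 52.5 in the 9 tumor libraries other than the rim of Rat3867. That rim had 11 Sftpc reads and, per 100 of them, 0 reads of Sftpb, 9.09 of Sftpa1, 9.09 of Scgb1a1 and 0 of Lamp3, below all 4 lungs. Sftpa1 gave 65.2 to 95.3 reads in the lungs and 57.3 to 120 in the 9 tumor libraries, and Scgb1a1 gave 23.7 to 70.5 and 16.3 to 65.0. Sftpd and Lamp3 had few reads in the tumor, at most 22 and 8 per library, and spread more widely there than in the lungs. Sftpd gave 11.5 to 19.3 reads in the lungs and 0 to 25.6 in the 9 tumor libraries, and Lamp3 gave 4.09 to 5.70 and 2.50 to 6.98. The other 3 genes had other proportions. Napsa gave 6.03 to 9.86 reads per 100 Sftpc reads in the lungs and 158 to 3976 in the 9 tumor libraries. Hopx gave 9.22 to 14.4 and 147 to 1364, and Ager 13.4 to 25.8 and 27.9 to 104. In the rim of Rat3867 the 3 genes stood at 2736, 2582 and 309. These ratios are descriptions of single libraries, with Sftpc shared by all of them.

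**Figure D4:**
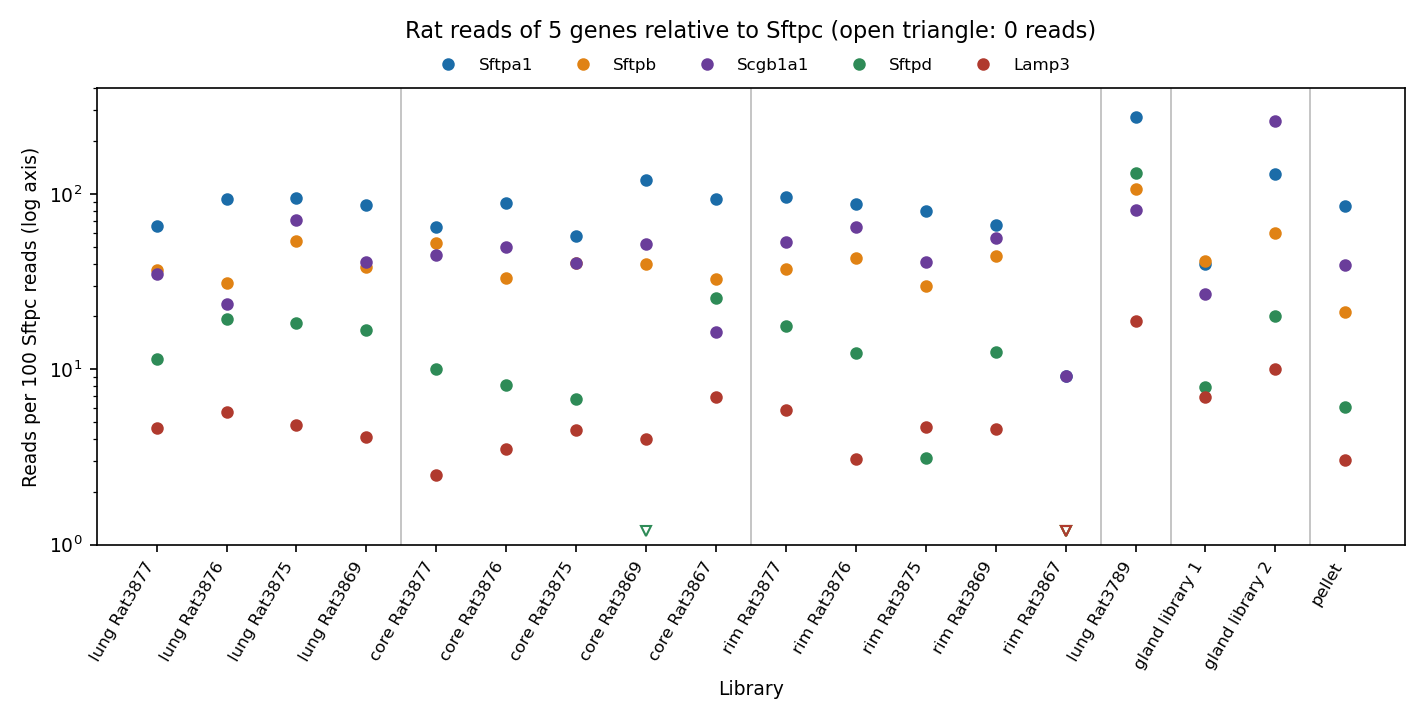
Reads of Sftpa1, Sftpb, Scgb1a1, Sftpd and Lamp3 per 100 Sftpc reads in each library (log axis; open triangles at the lower edge stand for 0 reads, and symbols can overlap there). For Sftpb the 4 lungs span 31.1 to 53.8 and the tumor libraries other than the rim of Rat3867 span 29.7 to 52.5; the library labelled lung of Rat3789 is set apart, as are the gland libraries and the pellet.

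Relative to the mean of the 4 lungs, the median tumor level was 0.228% for Sftpc, 0.240% for Sftpb, 0.252% for Sftpa1, 0.216% for Sftpd, 0.282% for Scgb1a1 and 0.336% for Lamp3. Ager stood at 1.04%, Hopx at 16.0% and Napsa at 30.5%. Single tumor libraries spread widely around these medians: the first 6 genes spanned 0.00539 to 1.34%, which overlapped with Ager at 0.611 to 1.56%, while Hopx spanned 8.66 to 22.4% and Napsa 15.3 to 90.6%.

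The controls give the level of these genes in libraries without lung or tumor host. The pellet of 4T1 cells, which should hold no rat RNA, had 33 rat reads of Sftpc among 29659780 reads of both species, or 1.11 per 1000000, and the tumor libraries had 11 to 175 reads, or 0.433 to 7.41 per 1000000 of both species (median 2.23). The pellet also had 28 reads of Sftpa1 (0.944 per 1000000; tumor 0.0394 to 6.55), 13 of Scgb1a1 (0.438; tumor 0.0394 to 3.71) and 7 of Sftpb (0.236; tumor 0 to 2.91). It lay inside the tumor range for these 4 genes, but near its lower end. For Sftpa1 and Sftpb the pellet exceeded only the rim of Rat3867. For Sftpc it exceeded that rim and the core of Rat3869, and for Scgb1a1 that rim and the core of Rat3867. Sftpd and Lamp3 had 2 reads and 1 read in the pellet, above only the tumor libraries with 0 reads of the gene. For Napsa (6 reads, 0.202 per 1000000; tumor 10.5 to 40.1), Hopx (4 reads, 0.135; tumor 10.9 to 20.5) and Ager (7 reads, 0.236; tumor 0.898 to 3.40) the pellet lay below each tumor library. The part of such reads in the tumor levels was not tested.

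Rat mammary gland without a graft held little of the surfactant genes. Gland library 1 had 101, 42, 40 and 8 reads of Sftpc, Sftpb, Sftpa1 and Sftpd among 20692580 rat reads, and gland library 2 had 10, 6, 13 and 2 among 21387704. Scgb1a1 had 27 and 26 reads and Lamp3 7 reads and 1 read. Hopx was at 25.4 and 31.5 reads per 1000000 rat reads, Ager at 3.58 and 14.1, and Napsa at 0.773 and 4.63. The gland libraries come from another table and are scaled by their total only, so these values stand beside the tumor levels without a test. The tumor held 50.02 to 129 CPM of Hopx and 53.0 to 313 CPM of Napsa, above both gland libraries in each tumor library. Ager in gland library 2 stood above 8 of the 10 tumor libraries. Gland library 1 held 4.88, 2.03, 1.93, 0.387, 1.30 and 0.338 reads per 1000000 rat reads of Sftpc, Sftpb, Sftpa1, Sftpd, Scgb1a1 and Lamp3. This was inside the tumor range, but only the rim of Rat3867 was lower, and for Sftpd also the core of Rat3869. The next lowest tumor library held 8.04 CPM of Sftpc and 6.68 CPM of Sftpa1. Gland library 2 lay below all 10 tumor libraries for Sftpc, at 0.468. For Sftpb, Sftpa1 and Scgb1a1 it lay above only the rim of Rat3867.

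Mouse reads of these genes are a check of the species assignment. Of the 9, Sftpb, Napsa and Ager were among the 17672 genes of the mouse table. For the others no mouse value in tumor or lung was at hand, so their species assignment was not checked there. In the 4 lungs mouse Sftpb had 6 to 16 reads beside 9027 to 24370 rat reads, 0.0368 to 0.0775% of both, and mouse Napsa and Ager made up 0.162 to 0.334% and 0.114 to 0.335%. In the 5 rims mouse Sftpb had 0 reads, and in the cores 0 to 5. Mouse Ager in the tumor had 18 to 130 reads, 25.7 to 83.3% of the reads of both species, and mouse Napsa had 5 to 38 reads, 1.02 to 7.95%. The pellet had 7 mouse reads of Ager, 5 of Napsa, 74 of Lamp3 and 1 of Sftpd, and 0 of the others.

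In the mouse genome (GRCm38), Sftpb lies on chromosome 6 (72304610 to 72314371, plus strand) and Ager on chromosome 17 (34597862 to 34600936, plus strand), neither overlapping another annotated gene. Napsa lies on chromosome 7 (44572380 to 44586862, plus strand) and overlaps Gm15396 on the opposite strand, and Hopx on chromosome 5 (77086988 to 77115121, minus strand) overlaps Hopxos on the opposite strand. Whether counting used strand is not stated in the sources at hand, so reads of overlapping genes cannot be told apart. Rat positions were not used here.

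Most genes of the type 2 and type 1 lists were higher in lung too. These and the following lists were written with earlier results of these data known, so they are not independent support. The type 2 list also holds genes that other cells express, such as Lyz2. Of 27 further type 2 and surfactant genes, 17 were higher and 1 lower in lung than in rim with all 5 lungs, and 24 and 1 without Rat3789; of all genes tested, 11.7% and 14.3% were lower in lung in these 2 fits. Cldn18, a tight junction claudin, differed by 9.33 ± 0.72 (limma adjusted p = 6.12e-06), Nkx2-1, the transcription factor of lung epithelium, by 8.74 ± 0.45 (limma adjusted p = 1.03e-06) and Pla2g1b, a secreted phospholipase, by 7.94 ± 0.49 (limma adjusted p = 1.94e-06), each without Rat3789; with all 5 lungs the 3 differences were 7.335, 6.52 and 6.62. Cldn18 stands in the type 1 list as well, so the lists share a gene. Nkx2-1 had 0 reads in the Rat3789 library, where it is listed at 0.0569 CPM. Of 20 further type 1 genes, 12 were higher and 0 lower with all 5 lungs, and 17 and 0 without Rat3789, among them the water channel gene Aqp5 (7.43 ± 0.73; 5.58 with all 5 lungs) and Clic3 (7.02 ± 0.48; 5.76). The median log2 difference to rim without Rat3789 was 2.97 for the type 2 list and 5.18 for the type 1 list.

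Of 13 further airway secretory genes, 7 were higher with all 5 lungs and 11 without Rat3789, led by Pigr, the receptor that carries IgA across epithelium (7.93 ± 0.37, limma adjusted p = 4.56e-07), the cytochrome P450 gene Cyp2b1 (7.82 ± 0.55) and the retinal dehydrogenase gene Aldh1a1 (5.38 ± 0.33); 0 were lower. With all 5 lungs these 3 differed by 6.04, 5.86 and 4.399. Of 14 ciliated cell genes tested, 2 were higher with all 5 lungs, near the 11.3% of all genes, and 10 without Rat3789, where 16.7% of all genes were, such as Hydin, needed for ciliary beating (5.82 ± 0.68; 4.62 with all 5 lungs), and the tubulin gene Tubb4b (0.64 ± 0.13; 0.51). Foxj1, the master regulator of ciliated cells, is not among the genes of the rat table. In the 4 lungs the secretory list summed to 824 to 2070 CPM and the ciliated list to 293 to 657 CPM.

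Lung mesenchyme genes were higher in lung in 8 of 15 genes and lower in 1, and in 12 and 1 without Rat3789, with the transcription factors Tcf21 (7.998 ± 0.69; 6.84 with all 5 lungs) and Tbx4 (6.985 ± 0.31; 5.45) in front. Of 16 capillary endothelium genes, 6 were higher and 1 lower, and 11 and 1 without Rat3789; Foxf1 (6.40 ± 0.42; 5.29 with all 5 lungs) and Ace, angiotensin-converting enzyme (3.08 ± 0.38; 2.66), were higher, and Fibin (-1.96 ± 0.31; -1.90) was lower. Foxf1 stands in the lung mesenchyme list as well. Alveolar macrophage genes were mixed, with 2 of 11 higher and 2 lower, and 4 and 2 without Rat3789.

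Markers of other tissues differed between lung and rim as well. Of 10 neutrophil genes, 9 were higher in lung with all 5 lungs and 10 without Rat3789, and their sum was 2701 to 5959 CPM in the 4 lungs, 148 to 309 in the rims, 187 to 1245 in the cores and 495.5 in the Rat3789 library. S100a8 and S100a9, the calgranulin genes, differed by 4.90 ± 0.28 and 4.89 ± 0.27 without Rat3789 and by 4.28 and 4.23 with all 5 lungs. All 5 blood genes were higher in lung. Of 13 fibroblast and matrix genes, 12 were lower in lung and 13 without Rat3789, such as Sfrp4 (-8.001 ± 0.72 without Rat3789, -6.76 with all 5 lungs), Lum (-5.89 ± 0.24, -4.97) and Thy1 (-5.485 ± 0.25, -4.88). Of 9 mast cell genes, 4 were lower and 6 without Rat3789, and of the adipocyte genes 2 and 4; of 9 skeletal muscle genes 0 were called, and of 5 cardiac genes 1 was lower. Of 9 mammary epithelium genes, Krt8 and Krt18, which other simple epithelia express too, were higher in lung and 2 were lower, and without Rat3789 4 were higher and 2 lower. The part of any of these cells in the differences of the 9 genes was not tested.

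The summed levels show which of these tissues moved with the lungs. Blood genes summed to 741.5 to 1940 CPM in the 4 lungs, 410 CPM in the Rat3789 library, 101 to 951 CPM in the cores and 58.7 to 255 CPM in the rims. Mammary epithelium genes summed to 811 to 925 CPM in the 4 lungs, 155 CPM in the Rat3789 library and 668 to 1707 CPM in the rims. These ranges overlapped between lung and rim for mammary epithelium and not for blood. Skeletal muscle genes varied widely within each region, from 28.1 to 2055 CPM in the 4 lungs, 47.0 to 5080 CPM in the cores and 37.9 to 1251 CPM in the rims. Cardiac genes summed to at most 13.4 CPM in the lungs. Of the markers listed, Col1a2, Wap, Ltf, Aqp7, Myh1, Myh2, Atp2a1, Myh6, Myl7, Nppa, Ryr2, Hba1, Hbb-b1 and Mcpt2 are not among the genes of the rat table, nor are Marco, Chil3, Ear1 and Car4 of the macrophage list.

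Between core and rim the medians of the alveolar and airway lists differed in sign, which was not tested. Median log2 differences were 0.24 for type 2, -0.53 for type 1, -2.69 for airway secretory and 0.21 for ciliated genes. Of 20 type 2 genes tested, 6 were higher and 5 lower in core, and of 18 type 1 genes, 1 and 5. The counts were 0 and 3 of 6 airway secretory genes, and 1 and 2 of 7 ciliated genes. Of all genes tested, 17.2% were higher and 20.1% lower in core. The type 2 and type 1 counts of lower genes lay near that share of lower genes. The airway secretory count of lower genes, 3 of 6, lay above it, on few genes. The type 2 count of higher genes lay above the share of higher genes, and the type 1 and airway secretory counts lay below it. All 13 fibroblast and matrix genes were lower in core (median -2.97), and 4 of 7 neutrophil genes were higher, while Napsa and Hopx were higher in core. The neutrophil list summed to 187 to 1245 CPM in the cores and 148 to 309 CPM in the rims, and its part in the Napsa and Hopx differences was not tested.

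**Figure D5:**
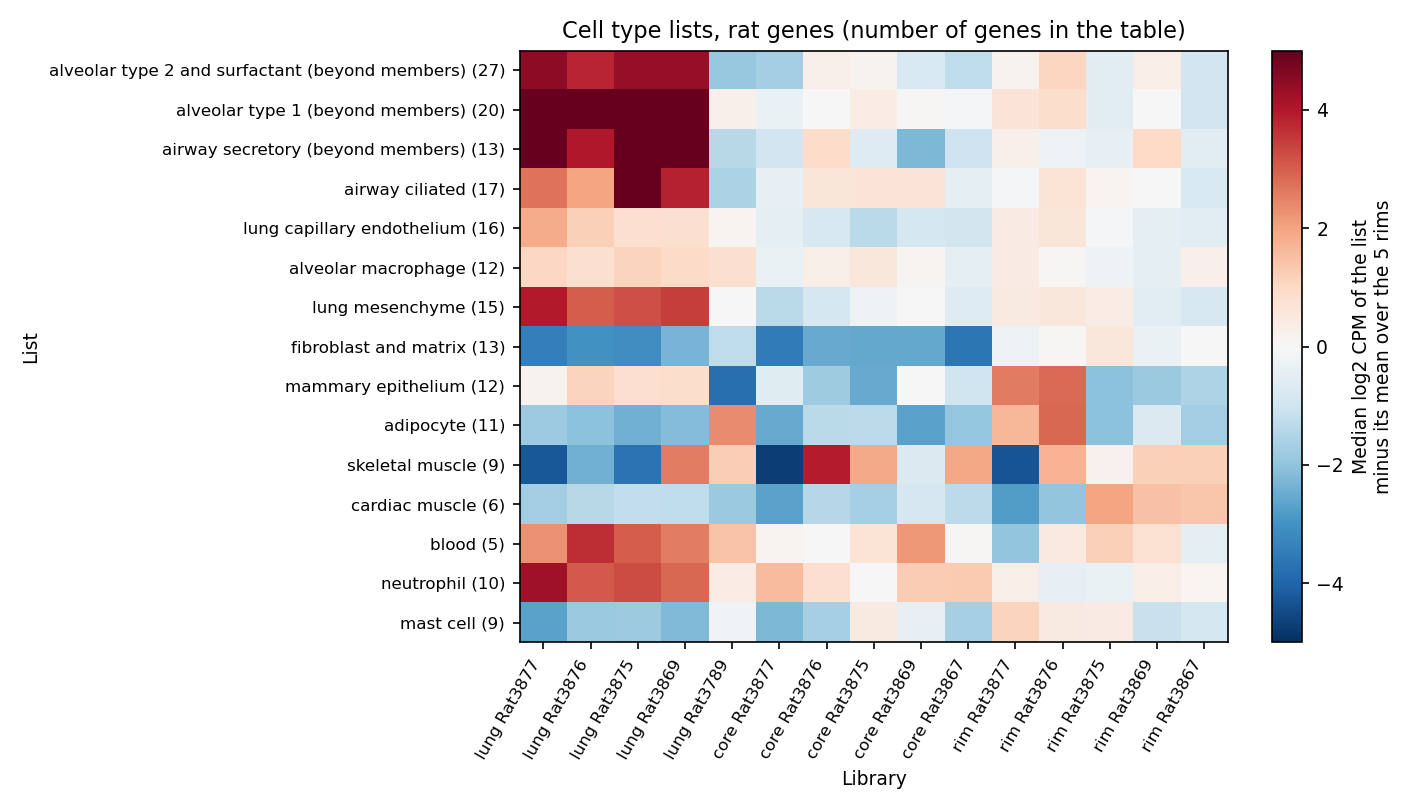
Median log2 CPM of each cell type list in each library minus its mean over the 5 rims (color scale; numbers in parentheses give the genes of the list in the rat table). The type 1, type 2, airway and mesenchyme lists are high in the 4 lungs and not in the library labelled lung of Rat3789, whose alveolar macrophage list is at the level of the 4 lungs and whose fibroblast list lies between those of the lungs and the rims.

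The genes outside the 9 whose pattern was most like their median over the 15 tumor and lung libraries were Cldn18, Pigr, Slc39a4, Ly6i, Retnla and Defb4. Likeness was the root mean square difference between log2 values centered on each gene's mean, and ranged from 0.53 for Cldn18 to 0.85 for Defb4, a beta-defensin gene. Slc39a4, which encodes a zinc transporter, held 114 to 199 CPM in the 4 lungs, 0.626 CPM in the Rat3789 library and 0.302 to 2.32 CPM in the tumor. Retnla, a gene of the resistin family, held 82.1 to 261 CPM, 0.171 CPM and 0.101 to 2.32 CPM. For Scgb1a1 alone the most alike genes were Sftpb (0.56), Sftpa1 (0.65), Sftpc (0.71) and Ly6i (0.79), so that 3 of the 4 were surfactant genes from among the 9.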

How the data were processed

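PolyA libraries of tumor core, tumor rim and lung (5 each), mammary gland (2) and a 4T1 pellet (1) were used; groups follow the labels. The submitters' processing notes name Trim Galore, STAR, featureCounts, limma and the builds GRCm38 and Rnor_6.0; tool versions, the species assignment method and strand handling are not stated there. For the controls the authors deposited raw counts of reads per gene. For tumor and lung they deposited a normalized signal, read here as CPM with 0.5 read added, since 100% of values gave whole reads within 0.01. No column was left unmapped (0). The gland libraries carry the deposited table's numbers, which differ from the labels'.

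The main test was limma 3.58.1 (trend, two-sided, Benjamini-Hochberg) (R 4.3.3) on log2 deposited signal, for rat genes reaching 1 CPM in 4 or more compared libraries; adjusted p under 0.05 was called. SEs are of log2 differences. Core and rim were compared with the rat as a block, since the labels name the animal; their deviations from the group means correlated at 0.295, 0.069, 0.060, 0.037 and 0.035 (Rat3877, Rat3876, Rat3875, Rat3869, Rat3867). The lung comparisons had no block, as the labels list no tumor of Rat3789 and no lung of Rat3867. edgeR 4.0.16, DESeq2 1.42.0 and limma-voom on the recovered reads were alternatives, beside other filters, scalings and left-out libraries. Scripts were tested on simulated data.

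The members and gene lists were chosen with earlier results of these data known. Named beyond the 9 are up to 3 genes per list with the largest called lung-rim difference at a mean of at least 2 log2 CPM, and the 6 and 4 most alike genes. No replicates agreed within sampling noise (lowest chi-square per degree of freedom 5.39). Without molecular identifiers, reads are not independent molecules, and the 3-read limit for 0 reads covers counting error only.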

Additional observations from a re-analysis of the deposited data

Results flagged for a closer look

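In the lung group of 5, the library labelled lung of Rat3789 was set apart below the other lungs in 8 of the 9 genes: Sftpc 1.877 CPM, Sftpb 1.991, Sftpa1 5.062, Sftpd 2.446, Scgb1a1 1.536, Napsa 65.69, Lamp3 0.3981 and Ager 8.247 CPM. Hopx was not set apart there. In the rim group, the rim of Rat3867 was set apart below the others for Sftpb (0.1007 CPM, 0 reads) and Sftpa1 (0.302 CPM, 1 read). Of 27 groups of 1 gene in 1 region tested for a library far from the others, 10 had one; chance alone sets 1 library apart in about 1 of 20 groups, and genes of 1 library are not independent.

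Rat reads of 7 genes appeared in the 4T1 cell pellet, a mouse library, above the 3 reads that a count of 0 allows: 33 of Sftpc, 28 of Sftpa1, 13 of Scgb1a1, 7 of Sftpb, 7 of Ager, 6 of Napsa and 4 of Hopx. Per 100 Sftpc reads the pellet held 84.8 reads of Sftpa1, 39.4 of Scgb1a1, 21.2 of Ager and 12.1 of Hopx, within the ranges of the 4 lungs. It held 21.2 of Sftpb, 18.2 of Napsa, 6.06 of Sftpd and 3.03 of Lamp3, outside those ranges. Most of these proportions rest on few reads.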

How the results depend on the processing

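With all 5 lungs, limma-voom called 2 of the 9 genes against rim and 1 against core. With each library left out in turn, 6 to 9 genes were called against rim (2218 to 4385 of all genes, main 3263), 6 to 9 against core (3436 to 5452, main 4724), and 1 to 3 between core and rim (3805 to 4763, main 5151): 1 without Rat3876, 1 without Rat3867 and 3 without Rat3869. Napsa between lung and core reversed to -0.01155 without the core of Rat3877 (limma adjusted p = 0.989) and was 0.6598 without Rat3789, and Sftpd between core and rim reversed to -0.48 without Rat3867 and reached 1.925 without Rat3869; the causes were not tested. Without Rat3789, leaving out a further library gave 9 genes against rim each time (3239 to 4311 of all genes) and 8 to 9 against core (3790 to 5704). In that setting edgeR, DESeq2, limma-voom, other scalings, no filter and 1 added CPM each called 9 of 9 in both. Of all genes, these settings called 2286 to 3554 higher in lung than in rim and 2991 to 3799 higher than in core.

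With the replicate block over the 4 rats that gave both regions, 9 of 9 were called against rim (3930 genes, 2120 higher in lung). Against core 9 of 9 were called as well (5387 genes, 3083 higher in lung), with Napsa at 0.7139 (limma adjusted p = 0.0410). Without the replicate block, core and rim differed in 5109 genes, with the same count of 2. Total-count scaling raised the median of all genes to 0.15 log2 between lung and rim, and 2605 of 3894 called genes were then higher in lung, against 1609 of 3263; between lung and core it was 3263 of 4752, against 2664 of 4724. Each of the 9 was called with that scaling except Napsa against core. Tumor levels of Sftpd and Lamp3, at 0 to 22 and 0 to 8 reads, limit what differences between core and rim could be detected at this depth.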
